A study of Homo sapiens with 12 samples.

Results

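Genes of 5 secreted peptides, GCG, PRL, NTS, GAL and NMU, were followed across 4 human ovarian cancer cell lines. They were taken by current gene symbol from the platform annotation, where 6 probe sets named a member: 2 for GAL and 1 for each of the others. All 5 were among the 19775 genes measured, and each probe set named no other gene. The probe sets were 206422_at for GCG, 205445_at for PRL, 206291_at for NTS, 206023_at for NMU, and 214240_at and 207466_at for GAL. The members were chosen on their expression levels, since earlier results of these data showed each of them high in 1 of the lines, so their levels are given as a description with no test.

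RNA from untreated parental cultures of IGROV1, SKOV3, TOV112D and TOV21G was hybridised to Affymetrix U133 Plus 2.0 arrays, with 3 arrays per line and 12 in all. Per the labels' protocols, SKOV3 was grown in DMEM and the other 3 lines in RPMI medium, both with fetal calf serum. The line titled T112D is the one the growth protocol calls TOV112D. TOV112D came from an endometrioid and TOV21G from a clear cell carcinoma of the ovary. All values are log2 expression after robust multi-array averaging (RMA), a method that puts all arrays on 1 distribution. The labels do not say whether replicate arrays were made from different cultures, so errors and p-values reflect the spread among these samples alone, which may be technical.

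Peptide hormones and neuropeptides are made as longer precursors in the secretory pathway. Prohormone convertases cut most of them at pairs of basic residues, carboxypeptidase E trims the ends, and PAM amidates the final residue of many. Endocrine cells and neurons store the products in dense-core granules until a stimulus releases them. GCG encodes proglucagon, the source of glucagon in pancreatic alpha cells and of the incretin GLP-1 in intestinal L cells. PRL encodes prolactin of pituitary lactotrophs, which is also made by decidualised endometrial stroma. NTS encodes neurotensin and neuromedin N, GAL encodes galanin, and NMU encodes neuromedin U, peptides of the gut and nervous system.

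The bases just before the start site of the members are shown because GCG and PRL were high in the same line, and a reader can set their promoters side by side. RefSeq promoters of GRCh38.p14 matched 4 of the 5 members, GCG, PRL, NTS and NMU. Each line holds the 250 bases before the listed start, 5′ to 3′ on the strand of the gene, and capitals mark motif matches on either strand.
GCG, chr2:162152248-162152497, minus strand: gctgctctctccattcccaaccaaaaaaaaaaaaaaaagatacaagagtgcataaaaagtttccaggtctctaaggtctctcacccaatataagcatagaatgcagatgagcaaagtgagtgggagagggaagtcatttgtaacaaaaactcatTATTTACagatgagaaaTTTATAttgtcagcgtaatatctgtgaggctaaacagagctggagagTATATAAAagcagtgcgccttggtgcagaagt
PRL, chr6:22297037-22297286, minus strand: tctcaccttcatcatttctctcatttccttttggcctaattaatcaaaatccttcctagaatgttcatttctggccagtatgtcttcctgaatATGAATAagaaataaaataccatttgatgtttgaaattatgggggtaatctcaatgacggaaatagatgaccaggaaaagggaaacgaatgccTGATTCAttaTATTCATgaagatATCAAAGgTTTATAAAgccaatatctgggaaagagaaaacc
NTS, chr12:85874045-85874294, plus strand: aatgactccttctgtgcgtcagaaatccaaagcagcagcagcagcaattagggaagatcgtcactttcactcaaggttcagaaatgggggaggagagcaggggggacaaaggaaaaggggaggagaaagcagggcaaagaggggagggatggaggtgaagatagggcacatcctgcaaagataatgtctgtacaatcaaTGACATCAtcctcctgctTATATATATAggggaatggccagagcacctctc
NMU, chr4:55636794-55637043, minus strand: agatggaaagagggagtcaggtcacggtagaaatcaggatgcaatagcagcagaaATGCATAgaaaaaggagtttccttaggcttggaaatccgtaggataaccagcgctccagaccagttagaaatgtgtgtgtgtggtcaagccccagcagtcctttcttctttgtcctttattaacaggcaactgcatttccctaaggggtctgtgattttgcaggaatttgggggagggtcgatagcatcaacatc

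The motifs were chosen after the sequences had been read, and a match is only a description of letters. Both strands were searched, and the AP-1 pattern reads the same on both. The core promoter box TATANA lay at -32 to -25 in GCG as 2 overlapping matches, at -31 to -26 in PRL and, as 3 overlapping matches, at -33 to -24 in NTS. GCG and PRL also held it on the opposite strand. No match stood in the NMU window, and 17.7% of 35116 promoters of this length hold the pattern. TGACNTCA, the pattern of cyclic AMP response elements, was found in NTS at -51 to -44, against 6.87% of all promoters. The PRL window held TGANTCA (AP-1, 6.57% of promoters) at -64 to -58 and CTTTGAT (TCF/LEF, 2.26%) on the opposite strand at -41 to -35. TATNCAT, a core of sites of the pituitary factor POU1F1, was in PRL at -157 to -151 and -54 to -48, in NMU at -195 to -189, and in 6.41% of all promoters. The forkhead core TNTTTAC was in GCG at -96 to -90 and in 9.58% of promoters. GC content was 38.4% in GCG, 34.0% in PRL, 49.2% in NTS and 46.4% in NMU, all below the median of 58.0% over all promoters. The start of the PRL window lies 5799 bases inside the RefSeq span of the gene, so the span holds a start farther upstream whose promoter is not shown here, while those of GCG and NMU lie at the outer end of theirs. The arrays do not show which start site a transcript used.

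ERBB2, a gene known to be amplified in SKOV3, was used to check the labels. It measured 8.14 ± 0.09 (SD, n = 3) in the arrays labelled SKOV3, below IGROV1 (9.01 ± 0.05), TOV112D (8.82 ± 0.10) and TOV21G (8.48 ± 0.04). What is given here for SKOV3 holds for those arrays as labelled, and comparisons of the other lines were also run without them. Pearson r over the measured genes was 0.9972 to 0.9976 between arrays of the same line and 0.8892 to 0.9395 between lines. Among 8 markers of ovarian carcinoma epithelium, TOV112D measured EPCAM at 6.29, KRT8 at 5.29, KRT18 at 5.01 and PAX8 at 6.96, and IGROV1 measured the same genes at 12.17, 10.21, 11.77 and 10.26. MUC16 was at 2.79 to 3.01 in the means of all 4 lines.

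GCG was measured at a high level only in TOV112D among these 4 lines. Its 3 arrays read 13.55, 13.53 and 13.39 in TOV112D. They read 2.33, 2.27 and 2.52 in IGROV1, 2.41, 2.15 and 2.40 in the arrays labelled SKOV3, and 2.55, 2.36 and 2.28 in TOV21G. The TOV112D arrays lay far above all others, and the ranges of the other 3 lines overlapped. TOV112D exceeded the mean of those lines by 11.13 ± 0.08 (SE) on the log2 scale. Values near 2 lie at the floor of the RMA scale, so the size of this difference rests in part on that floor. Without the arrays labelled SKOV3 it was 11.11. In a bulk sample, fewer cells of a type and less RNA per cell cannot be told apart.

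PRL followed the same order at its top. Its arrays read 11.17, 11.11 and 11.27 in TOV112D, and from 2.95 to 3.49 on the 9 arrays of the other lines. TOV112D was again clear of every other array, by 7.63 between its lowest array and the highest of TOV21G, the next line. TOV21G (3.31 ± 0.19, SD, n = 3) and the arrays labelled SKOV3 (3.22 ± 0.07) overlapped, and IGROV1 stood at 3.04 ± 0.09. These levels are close to the floor, so the order of the 3 lines is not read and the size of the difference rests in part on the floor, as for GCG. The difference of TOV112D from the mean of the other lines was 7.99 ± 0.08 (SE), and moved by less than the spread between arrays when the arrays labelled SKOV3 were left out. Over the 12 arrays GCG and PRL had a Pearson r of 0.999, which rests on the contrast of 1 line with the rest.

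NTS was graded over the lines rather than confined to 1. The arrays labelled SKOV3 read 12.05, 12.10 and 12.15. TOV112D read 8.43, 8.33 and 8.62, and IGROV1 5.66, 5.13 and 5.27. TOV21G was lowest, at 2.80, 2.38 and 2.38. No 2 lines overlapped, and the neighbours in this order were 3.64, 3.11 and 2.83 apart in their means. The arrays labelled SKOV3 exceeded the mean of the others by 6.66 ± 0.12 (SE). TOV112D therefore carried an intermediate NTS level beside its GCG and PRL signal.

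NMU was highest in IGROV1, with arrays at 12.44, 12.45 and 12.42. The arrays labelled SKOV3 read 7.04, 7.27 and 7.07. TOV21G read 5.38, 5.92 and 5.96, and TOV112D 4.83, 5.15 and 5.06. The ranges of the 4 lines did not overlap, although TOV21G and TOV112D were only 0.23 apart between their nearest arrays. The 3 IGROV1 arrays spread over 0.03, against 0.58 for TOV21G. IGROV1 exceeded the mean of the other lines by 6.47 ± 0.11 (SE), and by 7.05 with the arrays labelled SKOV3 left out.

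GAL depended on the probe set. By probe set 214240_at, which has the higher mean, IGROV1 read 10.46, 10.53 and 10.59 and the arrays labelled SKOV3 8.95, 8.71 and 8.84. TOV112D read 3.21, 2.94 and 3.32 and TOV21G 3.23, 4.21 and 3.21, so these 2 lines overlapped and 1 TOV21G array stood above its partners. By this probe set IGROV1 exceeded the mean of the others by 5.35 ± 0.18 (SE), and by 7.18 with the arrays labelled SKOV3 left out. Probe set 207466_at stayed low on every array, at 3.68 ± 0.13 (SD, n = 3) in IGROV1, 3.23 ± 0.18 in the arrays labelled SKOV3, 2.96 ± 0.03 in TOV112D and 3.29 ± 0.07 in TOV21G. It too was highest in IGROV1, by 0.39 over TOV21G. The mean of both probe sets put IGROV1 2.93 above the other lines, and which probe set reports galanin transcripts was not tested.

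**Figure D1:**
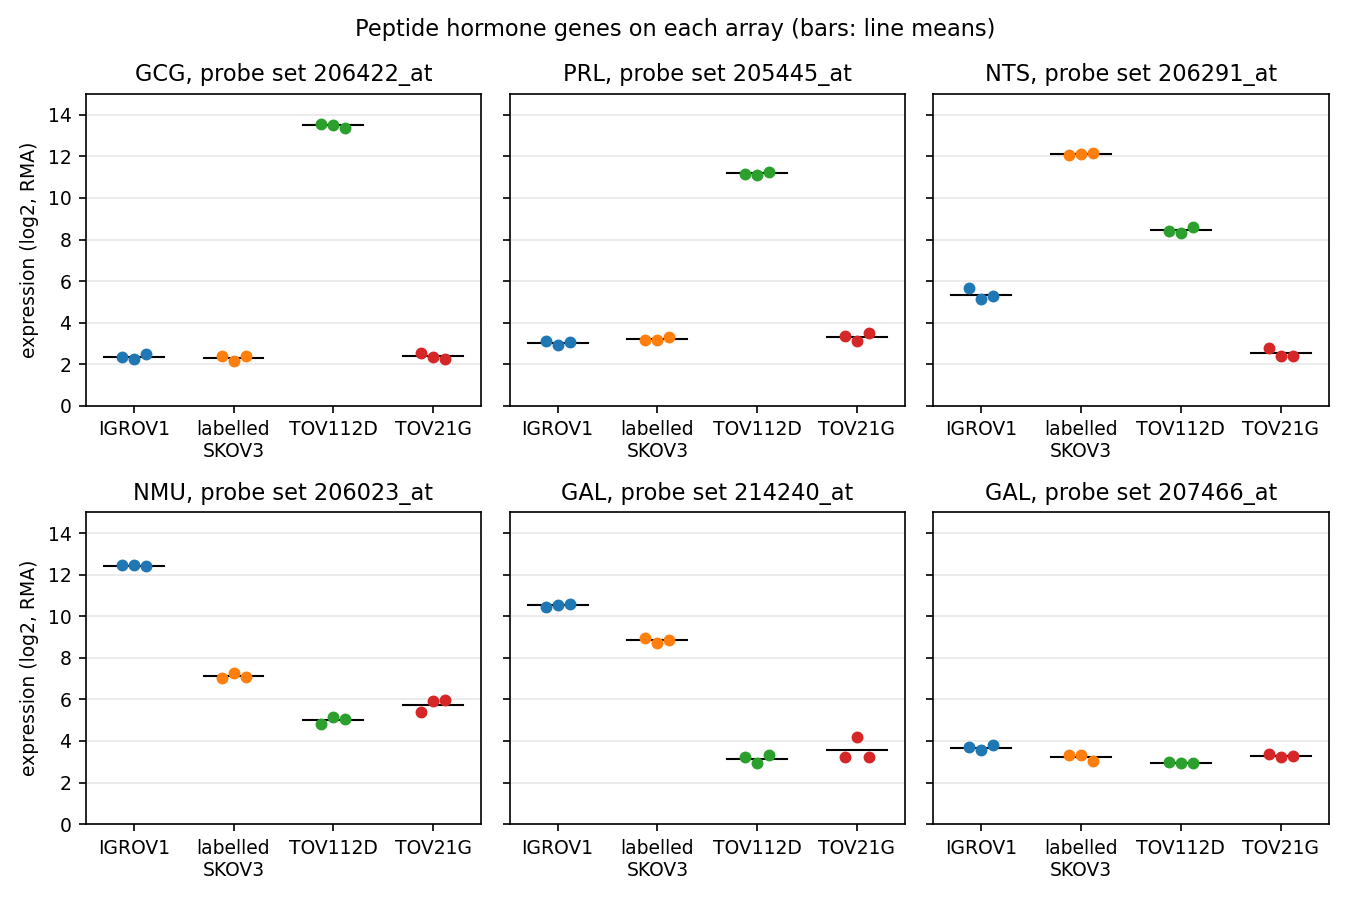
Expression of the 5 peptide genes by probe set, on the log2 RMA scale (vertical axis), for 3 arrays of each cell line (points) with the line mean (bar). GCG and PRL stand out in TOV112D, NTS falls in steps from the arrays labelled SKOV3 (12.10) to TOV21G (2.52), NMU and 1 of the 2 GAL probe sets are highest in IGROV1, and the other GAL probe set stays below 4.

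Each of IGROV1, TOV112D and the arrays labelled SKOV3 was therefore the top line of at least 1 member, and TOV21G of none. NMU and GAL, both highest in IGROV1 and second in the arrays labelled SKOV3, had r = 0.865 over the 12 arrays. All other pairs besides GCG with PRL lay between -0.62 and 0.29. These correlations describe 4 lines, since the 3 arrays of a line share their source.

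Other genes were tested with limma over all 19775 genes, comparing each line with the mean of the other 3, and are said to be higher, lower, to rise or to fall in a line when the adjusted p was under 0.05 and the difference at least 1 on the log2 scale (2-fold). In IGROV1, 7.20% of all genes passed as higher and 7.10% as lower. The shares were 7.03% and 7.64% in TOV112D, 7.09% and 5.15% in TOV21G, and 6.53% and 8.01% in the arrays labelled SKOV3. The 4 comparisons share their arrays. Of the 8 epithelial markers, IGROV1 had 7 higher and 0 lower, and TOV112D 0 higher and 7 lower, with a median difference there of -3.13. The median difference over all genes lay between -0.02 and 0.01 in each.

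Of all genes, 26.3% passed the test in at least 1 line. Among 12 measured receptor genes, 1 passed in a line by its representative probe set, and PRLR did so only when its probe sets were averaged. The first was SORL1, a sorting receptor that binds neurotensin, at 4.35 ± 0.31 (SD, n = 3) in IGROV1, 7.07 ± 0.03 in the arrays labelled SKOV3, 5.36 in TOV112D and 6.87 ± 0.14 in TOV21G. It was lower in IGROV1 (by -2.08 ± 0.11, SE; limma, adjusted p = 6.6e-09). It was higher in TOV21G (by 1.27, adjusted p = 7.9e-07) and the arrays labelled SKOV3 (by 1.54, adjusted p = 1.1e-07). Another SORL1 probe set gave the same order of low and high lines, at 2.97, 7.37, 4.82 and 7.36, and the remaining one stayed at 3.44 to 3.60. SORT1 was not analysed here.

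The other 11 receptor genes passed in no line by their representative probe sets. For proglucagon products, the glucagon receptor GCGR was at 4.94 to 5.11, the GLP-1 receptor GLP1R at 4.94 to 5.10 and the GLP-2 receptor GLP2R at 2.84 to 3.0 over the 4 line means. For neurotensin, NTSR1 was at 4.76 to 5.08 and NTSR2 at 2.99 to 3.13. For galanin, GALR1 was at 2.54 to 2.70, GALR2 at 3.56 to 3.96 and GALR3 at 6.17 to 6.32. The neuromedin U receptors NMUR1 and NMUR2 were at 3.83 to 4.17 and at 4.72 to 5.21. Over the list the median difference was between -0.01 and 0.06 in each line, close to that of all genes.

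For the prolactin receptor gene PRLR the choice of probe set mattered. Its representative probe set, the one with the highest mean, measured 4.18 in IGROV1, 4.42 in the arrays labelled SKOV3, 3.95 in TOV112D and 4.17 in TOV21G. In 4 of the 7 PRLR probe sets all 3 arrays labelled SKOV3 lay above the other 9 arrays. The widest gap was at 227629_at, which read 5.76, 5.48 and 5.75 in those arrays and 2.04 to 2.80 elsewhere. When the probe sets were averaged PRLR was higher in the arrays labelled SKOV3 by 1.19 (limma, adjusted p = 1e-09). In TOV112D, where PRL itself was high, the highest PRLR probe set averaged 3.95.

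**Figure D2:**
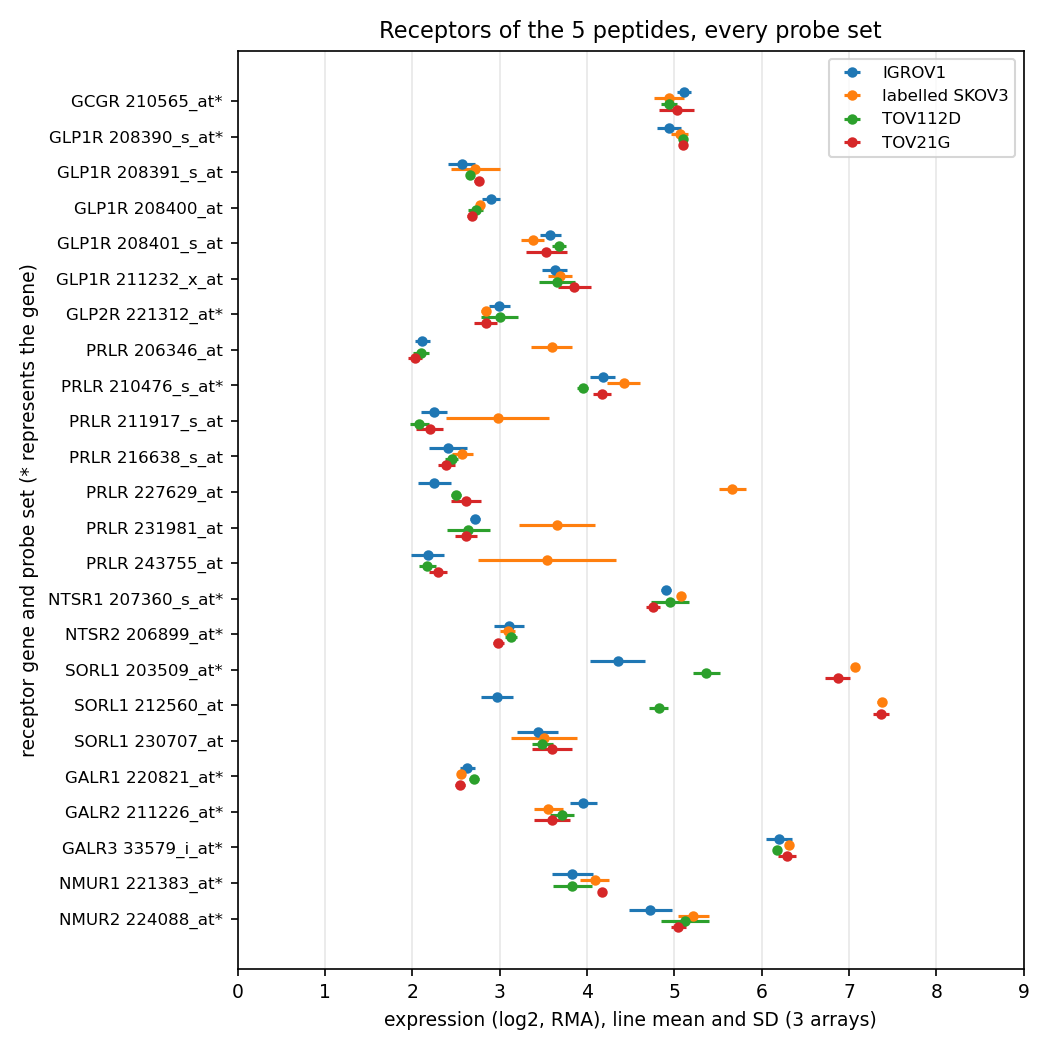
Line mean and SD (3 arrays) of every probe set of the 12 measured receptor genes on the log2 RMA scale (horizontal axis), with colours for the cell lines and an asterisk on the probe set that represents the gene. The lines coincide for most receptors, SORL1 is lower in IGROV1 by 2 probe sets, and several PRLR probe sets stand apart in the arrays labelled SKOV3.

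Genes that act downstream of the prolactin receptor were read beside it. Among 8 measured, the arrays labelled SKOV3 had 4 higher and 0 lower, against 6.53% and 8.01% of all genes. TOV112D had 1 higher and 2 lower, against 7.03% and 7.64%. SOCS2, an inhibitor of cytokine signalling induced by STAT5, was at 11.63 and 11.35 in these arrays and TOV112D, and at 8.16 and 8.46 in IGROV1 and TOV21G. It was higher in the former 2 by 2.30 and 1.94 (adjusted p = 5.8e-12 and 2.5e-11). SOCS1 was higher in the arrays labelled SKOV3 by 2.21 and lower in TOV112D by -1.71, and STAT5A was at 6.22 in the arrays labelled SKOV3 against 5.13 or less. The median difference of the 8 was 0.87 in those arrays, and -0.06 in TOV112D. When probe sets were averaged the count of 4 fell to 2, since SOCS1 and SOCS3 then differed by 0.67 and 0.66, and SOCS1 was no longer lower in TOV112D (-0.56). Without the arrays labelled SKOV3, STAT5B was also higher in TOV112D (by 1.10), for a count of 2. The arrays labelled SKOV3 also differ from the others in culture medium, which cannot be told apart from the line.

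Prohormone processing genes were uneven over the lines. Of 15 measured, 4 were higher and 2 lower in TOV112D, the line with GCG and PRL, beside 7.03% and 7.64% of all genes. The 4 were SCG5, PCSK1N, PAM and QPCT. SCG5, the chaperone of the convertase PC2, was at 7.09 ± 0.11 (SD, n = 3) in TOV112D and at 3.57, 3.11 and 2.77 in IGROV1, the arrays labelled SKOV3 and TOV21G (higher by 3.94 ± 0.10, SE; limma, adjusted p = 8.2e-12). PCSK1N, which encodes the inhibitor proSAAS, was at 8.34 there and at 6.63, 4.82 and 6.55 elsewhere. PAM, the amidating enzyme, was at 12.07 in TOV112D and 9.30 in IGROV1, where NMU, whose peptide is amidated, was highest. It was lower in IGROV1 by -1.77 (adjusted p = 1.5e-11).

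QPCT forms the pyroglutamate at the start of neurotensin. It was at 10.65 ± 0.10 in TOV21G and 8.16 ± 0.05 in TOV112D, and at 3.09 in IGROV1 and 2.67 for the arrays labelled SKOV3, the arrays highest in NTS. The trimming enzyme gene CPE was at 10.41 ± 0.12 in the arrays labelled SKOV3 (higher by 2.49, adjusted p = 1.3e-11), 9.32 in TOV21G, 7.71 in IGROV1 and 6.74 ± 0.10 in TOV112D (lower by -2.41, adjusted p = 1.6e-11). PCSK5, a convertase gene, was at 9.38 and 9.15 in IGROV1 and TOV21G and near the floor, at 3.07 and 2.98, in the other 2 lines. The list counted 1 higher and 3 lower in IGROV1, 1 and 4 in the arrays labelled SKOV3, and 3 and 1 in TOV21G. Of all genes, 7.20% and 7.10%, 6.53% and 8.01%, and 7.09% and 5.15% passed in the same order. The median difference over the 15 genes was -0.04 in TOV112D, and its 4 higher and 2 lower genes were as many without the arrays labelled SKOV3. PCSK1 and PCSK2, which encode the main convertases of regulated granules, were not analysed here.

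Granule and regulated release genes did not move as a block in any line. Of 27 measured, 3 were higher and 4 lower in IGROV1, 2 and 5 in TOV112D, 2 and 6 in TOV21G, and 3 and 3 in the arrays labelled SKOV3. Over all genes the shares were 7.20% and 7.10% in IGROV1 and 7.03% and 7.64% in TOV112D. In TOV21G they were 7.09% and 5.15%, and in the arrays labelled SKOV3 6.53% and 8.01%. The 2 higher genes in TOV112D were CHGB, a granin of dense-core granules, at 8.73 ± 0.10 (SD, n = 3) against 5.13 or less, and SYT11, a synaptotagmin, at 8.47 ± 0.04 against 5.34 or less. They were higher by 4.77 and 4.47 (limma, adjusted p = 1.9e-12 and 8e-13). The 5 lower genes in TOV112D were SCG2, VGF, RAB3B, RAB27B and CADPS2, at 2.99, 5.55, 6.17, 3.26 and 3.30. There VGF was not called without replicate 2 of TOV112D (-0.96) or without the arrays labelled SKOV3 (0.05). RAB27B was not called there with averaged probe sets (-0.96). In the arrays labelled SKOV3 the granins SCG3 and VGF were higher by 3.50 and 3.35, with SCG3 at 5.74 against 2.49 or less and VGF at 8.87 against 5.55 or less. IGROV1 was higher in RAB27B, a GTPase of granule docking, at 7.42, and in CADPS2, a priming factor, at 6.44. SCG2, another granin, was higher in TOV21G at 5.39. The 3 lower genes in the arrays labelled SKOV3 were the GTPase genes RAB3D, RAB27A and RAB27B. With averaged probe sets none of the 3 passed (-0.94, -0.69 and -0.89), for a count of 0, and RAB3D was no longer higher in IGROV1 (0.70) or TOV21G (0.53), where its call at 1.003 was also lost without any 1 of 6 arrays: replicate 2 of IGROV1, replicate 1 or 2 of the arrays labelled SKOV3, replicate 1 or 3 of TOV112D or replicate 3 of TOV21G (0.964 to 0.998). The median difference over the 27 genes lay between -0.06 and 0.04 in each line. Without the arrays labelled SKOV3, IGROV1 had 2 higher and 2 lower and TOV21G 1 and 4. TOV112D again had 2 and 5, with RAB3D lower in place of VGF.

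**Figure D3:**
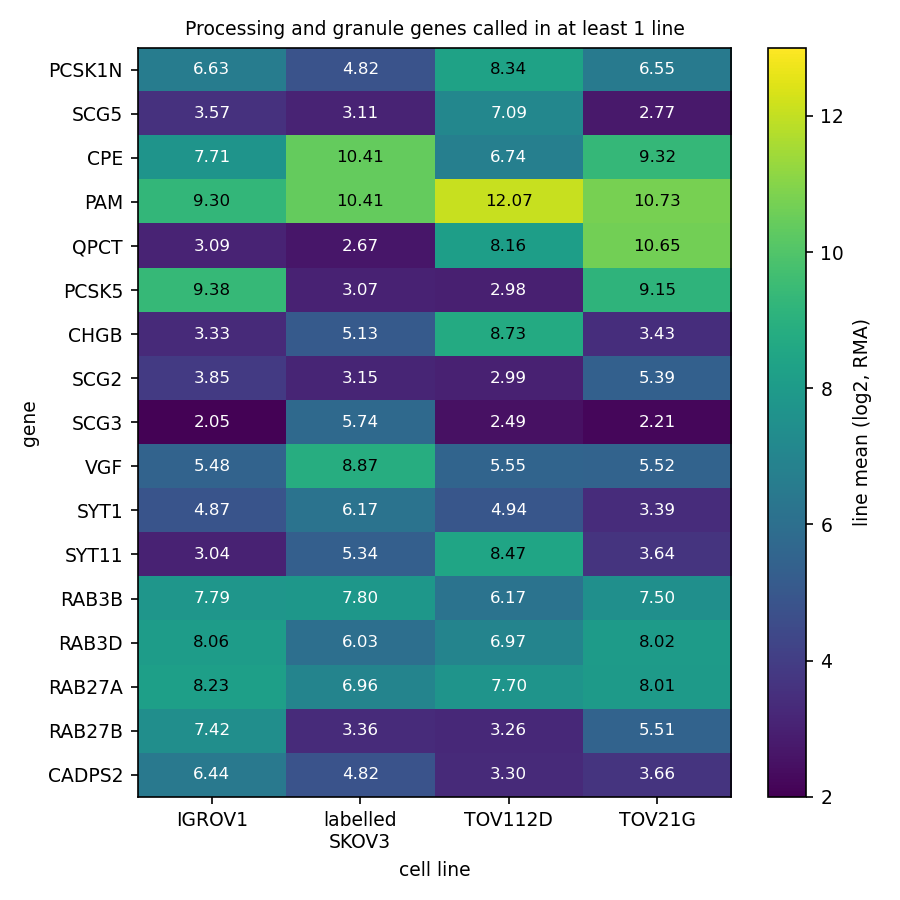
Line means on the log2 RMA scale (colour and printed value) for the prohormone processing genes (first 6 rows) and granule genes (rest) called in at least 1 line. TOV112D is highest in SCG5, PCSK1N, PAM, CHGB and SYT11 and lowest in CPE, PCSK5, SCG2, RAB3B, RAB27B and CADPS2. The arrays labelled SKOV3 lie close to it in PCSK5, SCG2 and RAB27B, and are highest in CPE, SCG3 and VGF, among others.

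Markers of cells that normally make the peptides were measured for comparison, and the uncalled ones named here were picked after their values were seen. Among 8 neuroendocrine markers, 1 was higher and 0 lower in TOV112D, CHGB, beside 7.03% and 7.64% of all genes. CHGA was at 4.03 there and at 2.89 to 3.22 elsewhere, a difference of 0.94 that became 1.05 without the first TOV112D array and then passed. SCG3 differed by -0.85, and by -1.03 without the second TOV112D array, when it passed as lower. That rests on the arrays labelled SKOV3, at 5.74. SCG3 was near the floor at 2.49 in TOV112D, 2.05 in IGROV1 and 2.21 in TOV21G. Without the arrays labelled SKOV3 it differed in TOV112D by 0.36. SYP was at 5.02 against 4.59 to 4.78, and INSM1, a factor of endocrine differentiation, was at 2.29 to 2.39 in all 4 lines. IGROV1 had 1 higher, NCAM1 at 8.99 against 6.08 or less, and 2 lower, CHGB and SCG3. The arrays labelled SKOV3 had 2 higher, SCG3 and SYT1, and 1 lower, NCAM1. TOV21G had 0 higher and 4 lower, CHGB, NCAM1, SYT1 and SCG3. Of all genes, 7.20% and 7.10%, 6.53% and 8.01%, and 7.09% and 5.15% passed in the same order. The SCG3 calls in IGROV1 and TOV21G were lost without the arrays labelled SKOV3. With averaged probe sets NCAM1 was no longer lower in the arrays labelled SKOV3 (-0.97) or TOV21G (-0.985). The summed level of the 8 markers ranged from 40.86 to 41.86 on the TOV112D arrays, 37.01 to 38.09 in IGROV1, 30.72 to 31.06 in TOV21G and 37.62 to 37.73 in the arrays labelled SKOV3. Their part in the peptide levels was not tested.

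Markers of alpha and L cells did not rise where GCG was high. Of 9 measured, 0 were higher and 1 lower in TOV112D, beside 7.03% and 7.64% of all genes. The lower one was ISL1, an islet factor, at 4.83 against 6.02 to 7.05 (by -1.65 ± 0.08, SE, limma, adjusted p = 1.7e-09). NKX2-2, RFX6, IRX1 and FOXA2, other islet factors, were at 2.30, 2.40, 2.92 and 3.60 in TOV112D. In the other lines their means reached at most 2.28, 2.35, 2.86 and 3.80. PAX6, which acts on the glucagon gene, was at 5.14 in TOV112D and 5.37 to 6.18 elsewhere. Their summed level was 32.54 to 33.64 on the TOV112D arrays, below the 35.02 to 36.25 of all other arrays. IRX2 passed in no line by its representative probe set. Its other probe set averaged 6.66 in the arrays labelled SKOV3 and 2.86 or less elsewhere.

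Of 7 lactotroph markers, 0 were called in TOV112D in either direction, where 7.03% of all genes were higher and 7.64% lower. POU1F1, the pituitary factor that drives PRL in lactotrophs, was at 2.14 in TOV112D and 2.16 to 2.23 in the other lines. PITX1 was called higher in IGROV1 alone among the lines (7.84 against 7.17 or less), and its difference of -0.99 in TOV112D was just under the size for a call. It passed as lower without replicate 2 of TOV112D (-1.14), replicate 1 or 3 of TOV21G or replicate 2 of the arrays labelled SKOV3. Summed levels were 26.83 to 27.03 in TOV112D and 26.80 to 29.05 in the others. Of 7 markers of decidual stroma, the other site of PRL, 0 were higher and 1 lower in TOV112D. The lower one was FOXO1, at 4.59 against 5.48 to 7.86 (by -2.43, adjusted p = 1.5e-10). BMP2, a growth factor of decidualisation, differed by -0.98 and passed as lower, for a count of 2, without replicate 1 or 3 of TOV112D, replicate 2 of IGROV1, replicate 2 of the arrays labelled SKOV3 or replicate 1 of TOV21G (-1.042 to -1.003). IGFBP1, the classic decidual product, was at 2.47 in TOV112D and highest in IGROV1 at 3.77, and PGR was at 2.38 to 2.50 throughout. Summed levels were 25.36 to 26.22 in TOV112D and 27.81 to 32.97 elsewhere. Their part in the PRL level was not tested.

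Peptide-cleaving enzymes, some at the cell surface and some cytosolic, differed most through DPP4 and FAP. Of 16 measured, 3 were higher and 0 lower in TOV112D, against 7.03% and 7.64% of all genes. IGROV1 had 1 higher and 1 lower, TOV21G 1 and 2, and the arrays labelled SKOV3 0 and 2. Of all genes, 7.20% and 7.10%, 7.09% and 5.15%, and 6.53% and 8.01% passed in the same order. FAP, a close relative of DPP4, was at 7.58 ± 0.13 (SD, n = 3) in TOV112D and 3.83 to 3.95 elsewhere. DPP4, which inactivates GLP-1, was at 10.05 ± 0.03 in IGROV1, 7.61 ± 0.15 in TOV112D, 3.64 in TOV21G and 3.90 in the arrays labelled SKOV3. Without the arrays labelled SKOV3 the difference of DPP4 in TOV112D was 0.76, under the size for a call. MME, or neprilysin, which degrades neurotensin among others, was at 5.18 in TOV112D and 4.22 or less elsewhere. Without the second TOV112D array its difference by this probe set went from 1.07 to 0.92, also too small to pass. Another MME probe set averaged 4.92 in TOV112D and 2.58 or less elsewhere. ECE1 and IDE, which cleave small peptides, came just short of the size for a call as lower in TOV112D, at -0.94 and -0.99. Both passed as lower without replicate 3 of TOV112D (-1.03 and -1.01), IDE also without replicate 2 of TOV112D (-1.05) or of TOV21G (-1.01), and ECE1 with averaged probe sets (-1.04) or without the arrays labelled SKOV3 (-1.09). ANPEP, an aminopeptidase, was higher in TOV21G by 1.01, but the difference was 0.39 with averaged probe sets and 0.87 with arrays centred on their medians, and leaving out replicate 2 or 3 of TOV21G, replicate 3 of IGROV1, replicate 2 of TOV112D or replicate 2 of the arrays labelled SKOV3 also ended the call (0.931 to 0.9998).

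DPP4 and FAP are also the neighbours of GCG on chromosome 2. Among the 3 nearest measured protein-coding genes on each side of GCG, 3 of 6 were higher in TOV112D and 0 lower, where 7.03% of all genes were higher. They were DPP4, FAP and IFIH1, the nearest gene before GCG and the nearest 2 after it. IFIH1, a sensor of viral double-stranded RNA, was at 10.80 ± 0.18 (SD, n = 3) in TOV112D and at 6.35, 2.45 and 3.47 in IGROV1, the arrays labelled SKOV3 and TOV21G (higher by 6.71 ± 0.08, SE; limma, adjusted p = 1e-14). FAP was higher by 3.68 (adjusted p = 3.8e-11) and DPP4 by 1.74 (adjusted p = 5.9e-08), although DPP4 was higher still in IGROV1 and its call rested on the arrays labelled SKOV3, as given above. Farther out, GCA stood at 8.57 in TOV112D and 7.45 to 8.51 elsewhere, and SLC4A10 and TBR1 at 2.10 and 2.41, about their level in all lines.

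**Figure D4:**
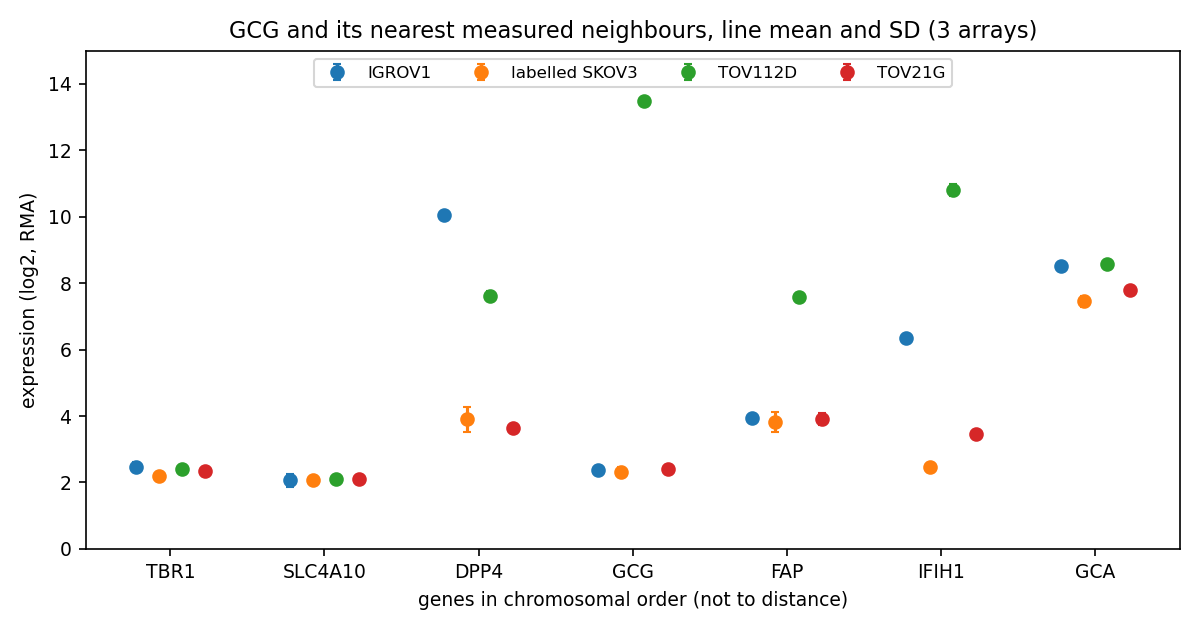
Line mean and SD (3 arrays) on the log2 RMA scale (vertical axis) of GCG and its 3 nearest measured protein-coding neighbours on each side, in chromosomal order and not to distance. TOV112D is highest at GCG (13.49), FAP (7.58) and IFIH1 (10.80), IGROV1 is highest at DPP4 (10.05), and TBR1 and SLC4A10 are low in all 4 lines.

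The other members' neighbours were counted by the same rule, each in the line where its member was highest. For PRL, 0 of 6 were higher and 1 lower in TOV112D, DCDC2 at 5.24. CDKAL1, at 6.26, was just short of a call there (-0.999), and it passed as lower, for a count of 2, under quantile normalization (-1.002) and without any 1 of 6 arrays: replicate 2 or 3 of IGROV1, replicate 1 of the arrays labelled SKOV3, replicate 2 or 3 of TOV112D, or replicate 1 of TOV21G (-1.072 to -1.002). For NTS, 1 of 6 was higher in the arrays labelled SKOV3, ALX1, a homeobox gene, at 8.41 against 5.59 or less. The gene that follows NTS, MGAT4C, was instead highest in IGROV1 at 7.26. For GAL, 2 of 6 were higher in IGROV1, CPT1A at 8.83 and LRP5 at 6.26, with CPT1A at the same 8.83 in TOV112D and, without the arrays labelled SKOV3, higher by only 0.76. For NMU, 3 of 6 were higher in IGROV1, TMEM165 at 10.86, CRACD at 7.06 and PDCL2 at 3.23, while CLOCK, EXOC1 and CEP135 were not called. CRACD was higher still in TOV112D, at 8.06, where NMU was lowest. In all, 9 of 30 neighbours were higher and 1 lower, where 6.53% to 7.20% of all genes were higher in these lines. When probe sets were averaged LRP5, TMEM165 and CRACD were no longer called, at differences of 0.85, 0.89 and 0.58, which left 6 of 30.

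The genes most like each member over the 12 arrays were named by Pearson r among 2981 genes whose line means spanned at least 2. For GCG these were OLFM3, ARMCX1, ROBO2, COL3A1 and DNM3OS, with r from 0.9993 to 0.9995. PRL shared OLFM3, DNM3OS and COL3A1 with that list and added BCL11B and LUM, at 0.9990 to 0.9995. In TOV112D they ranged from ROBO2, an axon guidance receptor, at 8.32 to COL3A1, a fibrillar collagen, at 13.27, and all 7 were below 2.8 in the other lines. A total of 172 genes exceeded r = 0.95 with GCG.

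The stepped pattern of NTS was matched by fewer genes, 44 over r = 0.95. The nearest were ANK2 (r = 0.9956), ASNS (0.9949), UST, MDFI and OSBPL8. ANK2, a membrane adaptor, stepped from 9.35 in the arrays labelled SKOV3 to 7.53 in TOV112D, 5.27 in IGROV1 and 3.41 in TOV21G. ASNS, the asparagine synthetase gene, took the same order over a narrower span, from 11.29 to 9.03. The genes nearest to NMU were GPRC5B, FGF18, CTTNBP2, LETM2 and MGAT4C (r = 0.9938 to 0.9958), and FGF18, a growth factor gene, was at 11.74 in IGROV1 and 7.27, 5.94 and 6.72 in the arrays labelled SKOV3, TOV112D and TOV21G. GAL was closest to PTGR1 (r = 0.9967), JPH1, APELA, C12orf56 and UGT8. APELA encodes another peptide hormone, and was at 4.62 and 4.35 in IGROV1 and the arrays labelled SKOV3 and at 2.09 and 2.11 in the TOV lines. These r values rest mainly on 4 line levels. Ranking by Spearman rho named other genes, sharing 1 of 5 with the list of GCG and 0 of 5 with each of the others.

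Of 76 other peptide hormone and neuropeptide genes measured, 20 were called in at least 1 line, or 26.3%, the same share as the 26.3% of all genes. The line means of 40 of them (52.6%) stayed below the median of all values, 4.44, in every line, beside 29.5% of all genes. Each gene is read here by its representative probe set. Another probe set of PENK, 1 of the 40, averaged 4.68 in TOV112D and 3.42 or less elsewhere. Counts were 5 higher and 6 lower in IGROV1, beside 7.20% and 7.10% of all genes, and 2 and 9 in TOV112D. They were 9 and 5 in TOV21G, beside 7.09% and 5.15%, and 9 and 4 in the arrays labelled SKOV3, beside 6.53% and 8.01%. TOV112D, where GCG and PRL were high, thus had 2 of 76 higher, beside 7.03% among all genes, and 9 lower, beside 7.64%, with a median difference of -0.09. The 2 were ADM, the vasodilator adrenomedullin, at 11.25 ± 0.05 (SD, n = 3), and UCN, urocortin, at 5.11 ± 0.38; with the TOV112D array of replicate 3 left out UCN differed by 0.91 and the count was 1. The 3 largest falls there were those of the stanniocalcins STC1 (by -3.31) and STC2 (by -2.75) and of endothelin 1, EDN1 (by -3.14).

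Genes of this list were called in the other lines too, some of them shared between lines. In IGROV1 PNOC, the nociceptin precursor, was at 8.60 ± 0.01 against 3.70 or less (higher by 4.95 ± 0.10, SE; limma, adjusted p = 1.4e-12), and ADM was lowest at 6.38. The arrays labelled SKOV3 had ADM at 11.55, VGF at 8.87 and EDN1 at 8.36, each higher by at least 2.40. Also called higher in the arrays labelled SKOV3 was GIP, the other incretin, at 5.89 against 3.66 or less. TOV21G, which led for none of the 5 members, was higher in INSL4, a placental peptide, at 7.47 (by 3.45, adjusted p = 3e-10), in PROK2 at 5.35 (by 3.21) and in EDN1 at 8.81. IAPP, the islet amyloid peptide, was at 5.21 in TOV21G and 2.90 or less elsewhere.

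**Figure D5:**
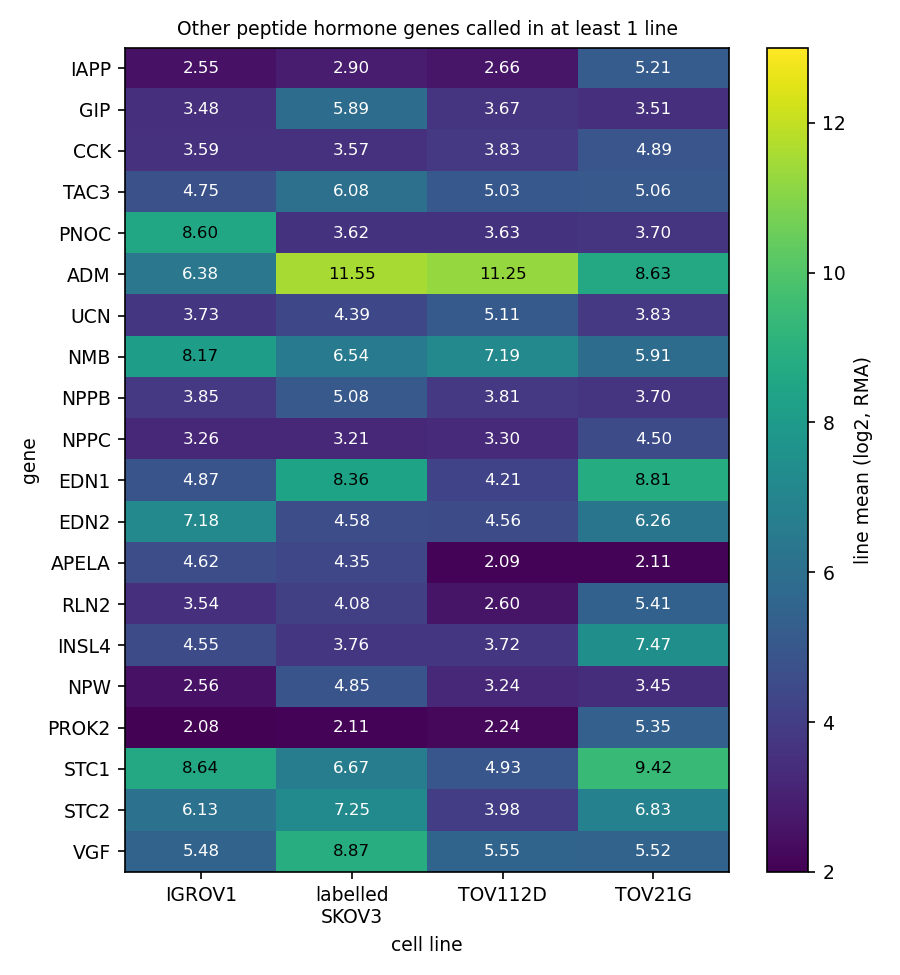
Line means on the log2 RMA scale (colour and printed value) of the 20 other peptide hormone and neuropeptide genes called in at least 1 line. ADM is high in TOV112D and the arrays labelled SKOV3, PNOC in IGROV1, VGF in the arrays labelled SKOV3, and INSL4, PROK2 and IAPP in TOV21G.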

How the data were processed

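The table the authors deposited holds log2 values of 54675 probe sets, computed by RMA in affy, as the submitters' processing notes give it. The version and chip definition were not given in the sources used here. RMA subtracts background and quantile-normalizes arrays, so a difference in total RNA between lines cannot be seen. No further transformation was made, and no detection calls were used. The number of arrays limits the precision. The titles gave each array's line. Probe sets took symbols of the platform annotation, updated by gene ID to RefSeq symbols (GRCh38.p14); 41091 probe sets with 1 gene gave 19775 genes, each represented by its probe set with the highest mean. Differences were fitted with limma 3.58.1 in R 4.3.3: 1 mean per line, contrasts of each line with the mean of the other 3, eBayes, Benjamini-Hochberg over all genes. On simulated data for TOV112D, 100% of 200 changed genes were recovered and 0 others were called among 19775 genes. The planted changes all exceeded the size for a call and were large beside the spread between arrays. The run therefore checks that the fit works and gives no error rate for these data. Recovery of differences close to the size for a call, 1 on the log2 scale, was not tested.

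The members and gene lists were chosen with earlier results of these data known. Genes were named by rule: all members and receptors, up to 3 called genes per list and line with the largest differences, 5 most alike genes per member, and 3 neighbours on each side; other levels, and called genes beyond 3 per list and line, were named after their values were seen. Some genes of these lists, and members' promoters beyond 4, were not used here. Alternatives were the mean of probe sets, no _x_at probe sets, no dim genes, median centring, quantile normalization, another eBayes prior, a replicate block and leaving out each array. A fit without the arrays labelled SKOV3 was added after ERBB2 had been seen.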

Additional observations from a re-analysis of the deposited data

How the results depend on the processing

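The differences of GCG, PRL, NTS, NMU and GAL in their top lines kept their direction in each alternative run, and those of GCG, PRL and NTS moved by less than the spread between arrays. With the mean of both probe sets the difference of GAL was 2.93. With that setting 2 receptors, not 1, were called higher in the arrays labelled SKOV3. Leaving out 1 array at a time gave 1 to 2 other peptide genes higher in TOV112D; the difference of GCG stayed between 11.10 and 11.18, of PRL between 7.95 and 8.03, of NTS between 6.62 and 6.71, of GAL between 5.29 and 5.46 and of NMU between 6.41 and 6.51. Without the arrays labelled SKOV3, an alternative chosen after seeing the data, the difference was 7.18 for GAL and 7.05 for NMU, and 3 other peptide genes, not 5, were lower in TOV21G. Every gene with a difference of at least 1 also passed the adjusted p, so calls were set by size, and members of lists with differences near 1 (RAB3D, ANPEP, STC2 and CPE in TOV21G, RAB27A and GHRH in the arrays labelled SKOV3, IAPP in IGROV1) crossed it under centring, GHRH upward to 1.08 and CPE downward to 0.91, for 2 processing genes higher in TOV21G. Centring moved the median of all genes in TOV21G by -0.13. Same-numbered arrays deviated together little (r from -0.1 to 0.128 over 18 pairs). These values show only that any effect shared by number was small, and do not settle whether the numbers pair the arrays. With the replicate block the counts were the same, such as 1391 genes higher and 1510 lower in TOV112D. Levels near 2 to 3 lie at the floor, where differences cannot be resolved.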
